A study of Rattus norvegicus with 16 samples.

Results

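The genes described here are 10 receptors and markers commonly used to recognise monocytes and macrophages: Cd14, Cd68, Csf1r, Cd163, Msr1, Mrc1, Tlr4, Tlr2, Aif1 and Cd36. They were chosen by name, with earlier results of these data known, so counts among them are no independent evidence. Their probes were found through RefSeq identifiers, and they make up 10 of the 26785 genes with a probe on the array. Together they have 13 probes, with 2 each for Csf1r, Aif1 and Cd36. RNA was measured on 16 Agilent 1-colour arrays in 8 groups of 2 arrays. All animals were female rats aged 15 weeks that had been immunised with an autoantigen that induces autoimmune glomerulonephritis, and blood and kidneys were taken on days 30 to 35. The rats were of the Wistar Kyoto (WKY) strain or the Lewis (LEW) strain. Magnetic beads were used to sort CD8+ leukocytes by RT1B, an MHC class II molecule of the rat, into RT1B+ and RT1Blow cells from WKY blood, LEW blood and WKY glomeruli. The other two groups were labelled as pan T cells of WKY blood and as macrophages of WKY glomeruli. No group came from animals without immunisation. Whether separate rats stand behind the 2 arrays in each group is not stated in the labels; the p-values therefore rest on array-to-array spread, part or all of which may be technical.

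Monocytes circulate in blood and enter inflamed tissue, where they can become macrophages. CD14 binds lipopolysaccharide and hands it to the receptor TLR4, while TLR2 senses bacterial lipoproteins. CSF1R is the receptor for the growth factors CSF1 and IL-34, on which most macrophages depend. MSR1, CD36, CD163 and MRC1 are surface receptors that take up modified lipoproteins, lipids, haemoglobin bound to haptoglobin, and mannose-bearing glycoproteins. CD68 is a glycoprotein of late endosomes and lysosomes, and AIF1, also called IBA1, is a calcium-binding protein of the macrophage cytoskeleton. Several of these genes are also expressed elsewhere: endothelial cells and platelets carry CD36, and rat NK cells and dendritic cells can carry some of the others. In glomerulonephritis, macrophages are among the cells that gather in glomeruli.

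Promoters were available for 8 of the 10 genes from RefSeq (GRCr8), and 4 of them are shown because they belong to the lipopolysaccharide receptor pair, the growth factor receptor and the lysosomal marker on which the comparisons below turn. Each window runs from 250 bases before to 50 bases after the annotated start of the gene. Capitals mark GAGGAA on either strand (TTCCTC on the opposite strand), the purine-rich core bound by the macrophage transcription factor PU.1, and TGANTCA on either strand, the core bound by AP-1. The windows lie at chr18:28611109-28611408 on the minus strand for Cd14, chr10:54882392-54882691 on the minus strand for Cd68, chr18:56834129-56834428 on the plus strand for Csf1r and chr5:85160997-85161296 on the plus strand for Tlr4.
Cd14: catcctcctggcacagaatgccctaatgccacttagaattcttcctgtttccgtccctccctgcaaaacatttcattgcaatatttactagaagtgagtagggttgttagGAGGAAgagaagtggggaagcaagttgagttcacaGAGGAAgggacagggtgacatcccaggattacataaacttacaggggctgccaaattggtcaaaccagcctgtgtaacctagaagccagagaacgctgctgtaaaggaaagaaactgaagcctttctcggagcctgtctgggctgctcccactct
Cd68: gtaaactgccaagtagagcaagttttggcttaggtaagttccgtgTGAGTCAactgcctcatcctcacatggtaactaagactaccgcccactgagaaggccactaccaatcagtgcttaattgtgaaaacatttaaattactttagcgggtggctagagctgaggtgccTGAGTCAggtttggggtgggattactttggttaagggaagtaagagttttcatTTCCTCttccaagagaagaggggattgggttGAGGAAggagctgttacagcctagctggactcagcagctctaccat
Csf1r: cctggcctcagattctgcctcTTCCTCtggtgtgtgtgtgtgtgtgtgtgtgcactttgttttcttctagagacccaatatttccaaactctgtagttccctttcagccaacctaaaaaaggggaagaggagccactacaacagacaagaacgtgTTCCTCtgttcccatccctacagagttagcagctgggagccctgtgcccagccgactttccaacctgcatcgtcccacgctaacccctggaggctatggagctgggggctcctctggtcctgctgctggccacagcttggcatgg
Tlr4: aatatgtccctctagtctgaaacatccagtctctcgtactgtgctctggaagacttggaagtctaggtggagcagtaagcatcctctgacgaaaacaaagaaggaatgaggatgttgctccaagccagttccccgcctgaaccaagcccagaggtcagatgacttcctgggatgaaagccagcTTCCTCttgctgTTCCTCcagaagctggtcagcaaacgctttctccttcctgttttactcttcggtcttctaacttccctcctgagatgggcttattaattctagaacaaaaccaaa
The PU.1 letters occurred in 6 of the 8 windows, at 2 places in 5 of them, and in 27.6% of the 33469 rat promoter windows of the same length. The AP-1 letters occurred only in that of Cd68 among the 8, at 2 places, and in 7.33% of all windows. The windows of Cd163 and Tlr2 held neither set of letters. A match is a description of the sequence and not of binding, and the arrays hold no measurement of it.

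Values are levels, taken as log2 spot signal after subtraction of the 75th percentile found on that array, so that a level of 0 equals that percentile and each unit is a 2-fold step. Levels of different genes come from different probes and are not set against each other. Of 58717 gene spots, 57.3% to 68.6% per array were well above background by the scanner software, and 0 were saturated. Of the 10 genes, 4 (Cd68, Csf1r, Tlr2 and Aif1) were above background on all 16 arrays, and 9 entered the test, which took genes above background on both arrays of any group. Mrc1 did not. The array of WKY blood RT1B+ replicate 1 stood apart, with 4 of the 10 genes above background and a mean level over the 9 tested genes of -4.43, against -3.35 to 0.57 on the other 15 arrays. Both macrophage-labelled arrays carry a name that reads pan T, and the group given by the sample labels was followed.

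On the macrophage-labelled arrays, 8 of the 10 genes were above background, and Cd163 and Mrc1 were not. Both arrays lay above each of the 14 other arrays for Cd14, Cd68, Tlr4, Aif1 and Cd36, that is for 5 of the 9 tested genes, while 12.8% of all 18481 tested genes showed that arrangement. Csf1r, Tlr2 and Msr1 reached levels at least as high on other arrays. A gene was called where limma gave a Benjamini-Hochberg adjusted p under 0.05 over all tested genes with at least a 2-fold change and signal above background on both arrays of a compared group. Of the 9 tested genes, 6 were called higher than in blood pan T cells (37.4% of all tested genes were called in this comparison, 17.8% higher). Against glomerular RT1B+ cells 7 were called higher (36.4% of all genes, 16% higher), and against glomerular RT1Blow cells 2 (36.1%, 13.2% higher). None was called lower. The 3 comparisons share the same 2 macrophage-labelled arrays, so their results are not independent, and all their arrays lay on 1 slide. There the pan T arrays lay in other columns, the RT1B+ arrays in another row, and the RT1Blow arrays in another row and other columns. Group and position on the slide thus cannot be told apart. The median log2 change of the 9 genes was 4.26, 3.09 and 1.50 in that order, beside -0.22, -0.33 and -0.43 for all tested genes.

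**Figure D1:**
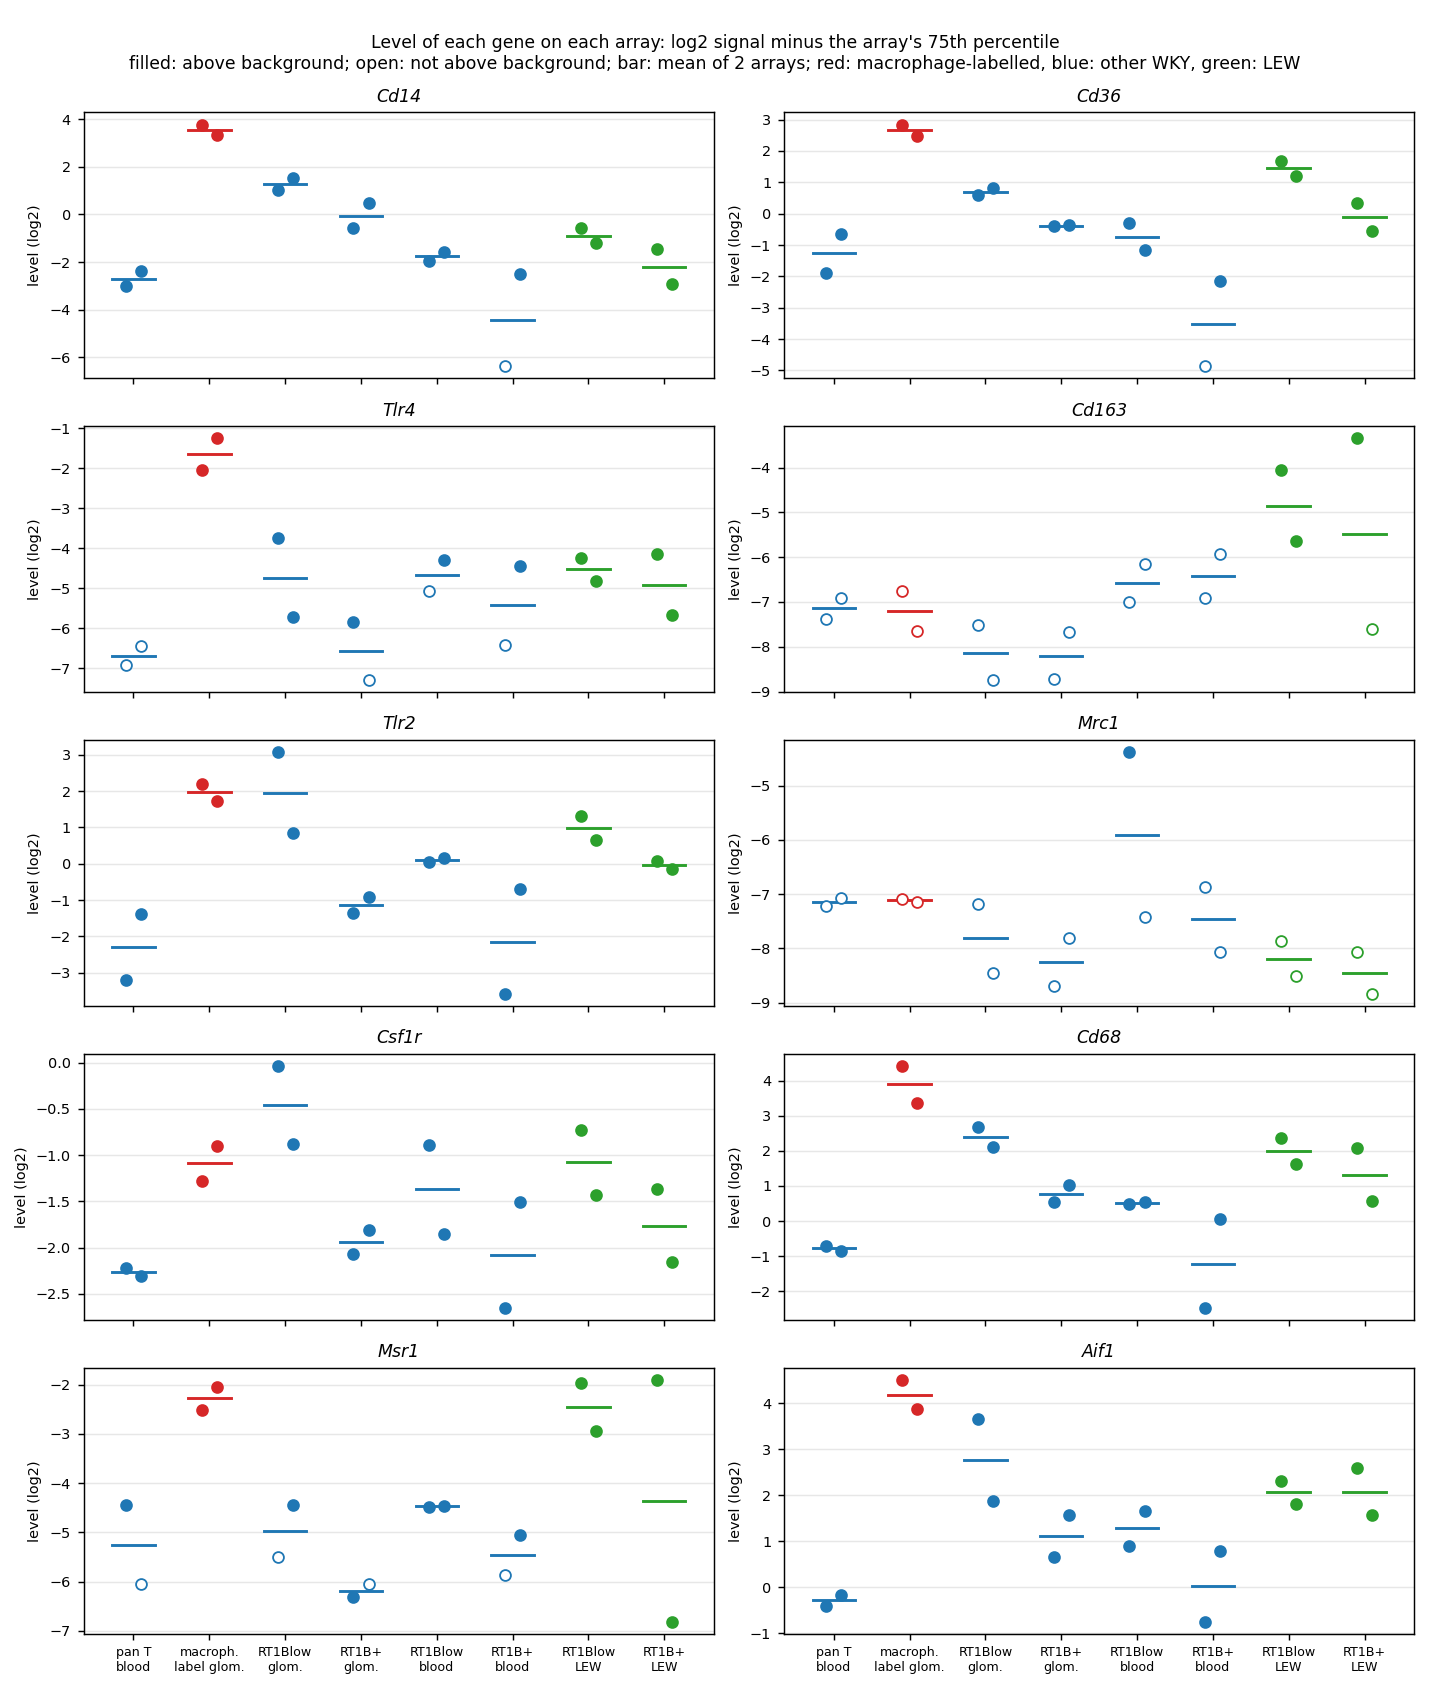
Level of each of the 10 genes on each of the 16 arrays (y axis, log2 relative to the array's 75th percentile), by group (x axis, 2 arrays each); bars are means, filled points were above background and open points were not. The macrophage-labelled arrays are the highest for Cd14, Tlr4, Cd36, Cd68 and Aif1, whereas Cd163 is above background on 3 LEW blood arrays alone and Mrc1 on 1 WKY blood array.

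Cd14, the lipopolysaccharide co-receptor, reached levels of 3.77 and 3.31 on the macrophage-labelled arrays. It lay at 1.02 and 1.51 in glomerular RT1Blow cells, and at -0.59 and 0.48 in glomerular RT1B+ cells. In WKY blood it lay at -1.97 and -1.57 in RT1Blow cells, at -6.37 (not above background) and -2.51 in RT1B+ cells and at -3.02 and -2.40 in pan T cells. The 3 glomerular groups thus followed one another from macrophage-labelled to RT1Blow to RT1B+ with no overlap of arrays, and every glomerular array exceeded every WKY blood array. LEW blood gave -0.56 and -1.21 in RT1Blow cells and -1.45 and -2.93 in RT1B+ cells. The macrophage-labelled level was 76.0-fold above pan T (log2 change 6.25 ± 0.95 (SE), adjusted p = 0.000293) and 12.1-fold above glomerular RT1B+ (3.59 ± 0.95, adjusted p = 0.00939). Without RT1B+ replicate 1 the second change was 3.06 and its adjusted p 0.0639. The difference of 2.28 ± 0.95 from glomerular RT1Blow did not pass (adjusted p = 0.0672).

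Tlr4, the receptor that signals for lipopolysaccharide, lay at -2.06 and -1.26 on the macrophage-labelled arrays. The highest of the 14 other arrays, glomerular RT1Blow replicate 1, lay at -3.76, and its partner at -5.73. On both of these arrays 1 of the 2 spots of the probe was above background, and on replicate 2 the spots lay 2.37 apart. Tlr4 was below background on both pan T arrays (-6.93 and -6.43), on glomerular RT1B+ replicate 2 (-7.29, with -5.84 on replicate 1), and on replicate 1 of both WKY blood groups (-5.07 in RT1Blow and -6.41 in RT1B+ cells, with -4.29 and -4.44 on the partner arrays). The 4 LEW blood arrays were above background, between -5.68 and -4.15. The macrophage-labelled level was about 23.4-fold above pan T (adjusted p = 0.000427), with pan T raised to the dimmest probes above background on its arrays. This is no strict bound, since a gene brighter than those probes can still miss background. On WKY blood RT1Blow replicate 1, Tlr4 did so at -5.07, where the dimmest such probe lay at -5.92. The macrophage-labelled level was 30.1-fold above glomerular RT1B+ (log2 change 4.91 ± 0.81, adjusted p = 0.000627) and 8.49-fold above glomerular RT1Blow (3.09 ± 0.81, adjusted p = 0.00946). The last call was lost without macrophage-labelled replicate 2 (2.69, adjusted p = 0.0677) or RT1Blow replicate 2 (2.10, adjusted p = 0.0839).

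Tlr2, the lipoprotein sensor, was as high in glomerular RT1Blow cells (3.06 and 0.85) as on the macrophage-labelled arrays (2.19 and 1.73). The change between those groups was 0.00 ± 0.90 (adjusted p = 0.997), an error wide enough that a difference of severalfold either way could not be seen. Glomerular RT1B+ cells lay lower, at -1.35 and -0.90, WKY blood RT1Blow cells at 0.06 and 0.16, WKY blood RT1B+ cells at -3.58 and -0.70 and pan T cells at -3.20 and -1.40. LEW blood lay at 1.30 and 0.65 in RT1Blow and at 0.09 and -0.13 in RT1B+ cells. Tlr2 was called 19.2-fold above pan T (4.26 ± 0.90, adjusted p = 0.00233) and 8.51-fold above glomerular RT1B+ (3.09 ± 0.90, adjusted p = 0.0148). The second call was lost without macrophage-labelled replicate 1 (2.86, adjusted p = 0.0682) or RT1B+ replicate 1 (2.87, adjusted p = 0.0704).

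Of 14 tested genes of the Toll-like receptor complex and its signalling, a list that leaves out the 10 genes above, 6 were called higher than in pan T and 2 lower (17.8% and 19.7% of all genes were). The former included Ly86 and Cd180, which form a receptor complex related to that of TLR4: Ly86 was 15.0-fold higher (level 1.25 against -2.66, adjusted p = 2.39e-05). Tlr7, a sensor of RNA, averaged -4.11 and was not above background in pan T cells. Against glomerular RT1Blow cells 2 of the 14 were higher and 4 lower, shares near those of all genes (13.2% higher and 22.8% lower): the adaptor Myd88 was 4.59-fold lower, the NF-kappaB inhibitor Nfkbia 4.43-fold lower and the ubiquitin ligase Traf6 3.84-fold lower, while Ly86 was 2.57-fold higher.

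Csf1r, the growth factor receptor, was above background on every array, but its macrophage-labelled levels of -1.28 and -0.90 were not the highest. Glomerular RT1Blow cells lay at -0.04 and -0.88, WKY blood RT1Blow cells at -0.89 and -1.85, and LEW blood at -0.73 and -1.43 in RT1Blow and -1.37 and -2.16 in RT1B+ cells. Lower levels were found in glomerular RT1B+ cells (-2.07 and -1.81), WKY blood RT1B+ cells (-2.65 and -1.50) and pan T cells (-2.22 and -2.31). By this probe, the one with the higher mean, none of the macrophage comparisons was called: the change was 1.18 ± 0.47 from pan T (adjusted p = 0.0562), 0.85 ± 0.47 from RT1B+ (0.150) and -0.63 ± 0.47 from RT1Blow cells (0.287).

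The second probe of Csf1r gave a wider range, from -4.46 to 0.60, against -2.65 to -0.04 for the first. Its macrophage-labelled levels of -0.62 and -0.61 compared with -4.13 and -3.43 in pan T and with -3.52 and -3.00 in glomerular RT1B+ cells. Tested on its own among all probes, a choice made after seeing the data, it was called 8.95-fold above pan T (3.16 ± 0.68, limma adjusted p = 0.00281) and 6.24-fold above RT1B+ cells (2.64 ± 0.68, adjusted p = 0.00847). Neither probe gave a higher macrophage-labelled mean than that of glomerular RT1Blow cells, where the second lay at 0.60 and -1.62 (a change of -0.11 ± 0.68), although centring on pan-leukocyte genes, which adds 1.37, turned the change of the first to 0.75 and turns that of the second as well. The size of the Csf1r difference thus rested on the probe, and which of them measures the transcript better cannot be read from the arrays.

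**Figure D2:**
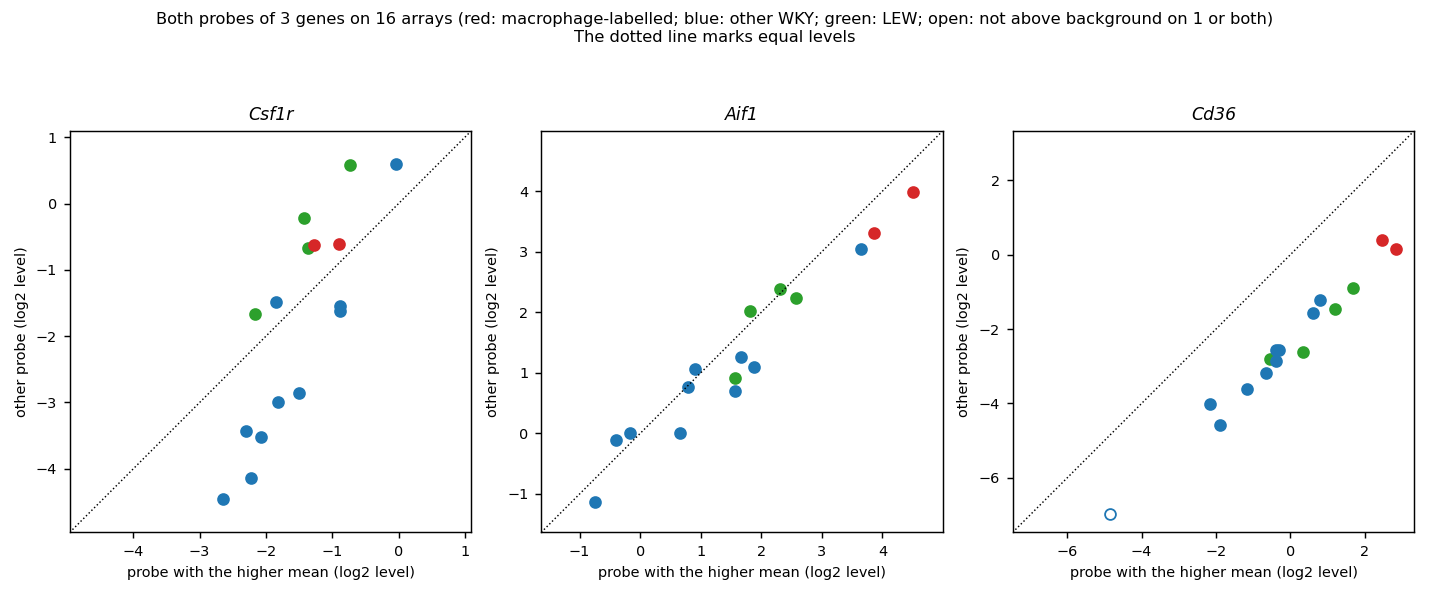
Levels by the probe with the higher mean (x axis, log2) and by the other probe (y axis, log2) of Csf1r, Aif1 and Cd36 on 16 arrays; the dotted line marks equal levels. Aif1 points lie near the line, Cd36 points run below it in parallel, and Csf1r points run more steeply than it, from -4.46 to 0.60 on the y axis.

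Of 6 tested genes of the colony-stimulating factor axis, 4 were called higher than in pan T cells (17.8% of all genes), 4 higher than in glomerular RT1B+ (16% of all genes) and 1 higher than in RT1Blow cells (13.2% of all genes). The ligand Csf1 was 23.8-fold above pan T (level 2.24 against -2.33, adjusted p = 6.07e-06), though it differed by 0.33 ± 0.40 and 0.24 ± 0.40 from the glomerular RT1B+ and RT1Blow cells, neither of which passed. The other ligand, Il34, averaged 1.06 and was above each of the compared groups: 4.38-fold above pan T, 16.8-fold above RT1B+ and 10.3-fold above RT1Blow cells (adjusted p = 0.000195). Csf2ra, the receptor chain for GM-CSF, was 7.23-fold above pan T.

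Among the uptake receptors, Cd36 was the one called in each macrophage comparison. Its macrophage-labelled levels were 2.84 and 2.47, beside 0.60 and 0.80 in glomerular RT1Blow, -0.39 and -0.37 in glomerular RT1B+ and -1.89 and -0.65 in pan T cells. WKY blood lay at -0.30 and -1.16 in RT1Blow cells and at -4.86 (not above background) and -2.15 in RT1B+ cells, and LEW blood at 1.69 and 1.21 in RT1Blow and 0.35 and -0.54 in RT1B+ cells. After the macrophage-labelled arrays the highest were therefore those of LEW blood RT1Blow cells, not a glomerular group. The macrophage-labelled level was 15.2-fold above pan T (3.93 ± 0.71, adjusted p = 0.000955), 8.21-fold above RT1B+ (3.04 ± 0.71, adjusted p = 0.00509) and 3.88-fold above RT1Blow cells (1.95 ± 0.71, adjusted p = 0.0412). The last call was lost whichever of its 4 arrays was left out, with adjusted p-values of 0.145 and 0.0964 without macrophage-labelled replicates 1 and 2, and of 0.143 and 0.0973 without RT1Blow replicates 1 and 2. By the second probe that change was 1.68 ± 0.76 (adjusted p = 0.0890), and the other calls held. In RefSeq, Cd36 lies on chromosome 4 beside the related genes Cd36l1 and Cd36-ps1, and how far the probes tell their transcripts apart was not tested.

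Msr1, the class A scavenger receptor, lay at -2.52 and -2.04 on the macrophage-labelled arrays and at similar levels on 3 LEW blood arrays (-1.97, -2.94 and -1.91), while the fourth, RT1B+ replicate 2, gave -6.81. All other WKY arrays were lower, between -6.32 and -4.44, and 4 of those 10 were not above background. Msr1 was called 15.0-fold above glomerular RT1B+ cells (3.90 ± 1.16, adjusted p = 0.0169). That call was lost without RT1B+ replicate 1 (3.77, adjusted p = 0.0686), RT1B+ replicate 2 (4.04, adjusted p = 0.0622) or macrophage-labelled replicate 2 (3.67, adjusted p = 0.0826). Changes of 2.97 ± 1.16 from pan T (adjusted p = 0.0533) and 2.70 ± 1.16 from glomerular RT1Blow cells (adjusted p = 0.0744) did not pass. The 2 spots of Msr1 lay 2.58 apart on pan T replicate 1 and 4.34 apart on replicate 2, so its pan T level is uncertain.

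Cd163, the haptoglobin-haemoglobin receptor, was below background on both macrophage-labelled arrays (-6.77 and -7.64), as on every other WKY array. It was above background on LEW blood RT1Blow replicates 1 and 2 (-4.06 and -5.64) and RT1B+ replicate 1 (-3.35), with -7.60 on RT1B+ replicate 2, so the fold between any pair of the WKY groups has no meaning. Mrc1, the mannose receptor, was above background on 1 array of 16, WKY blood RT1Blow replicate 1 (-4.39). There 1 of its 2 spots passed, and the spots lay 5.20 apart (-6.99 and -1.79), so that level is uncertain. Mrc1 levels on the macrophage-labelled arrays, -7.08 and -7.15, lay within the range of the other 13 arrays, -8.84 to -6.87. Both genes are often used as markers of resident or alternatively activated macrophages, and neither was detected in the group that bears the macrophage label. No group of any kind had Mrc1 above background on both of its arrays. Cd163 was below background in every other WKY group as well, so non-detection was not particular to the macrophage label.

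Of 9 other tested scavenger and phagocytic receptors, 7 were called higher on the macrophage-labelled arrays than in pan T cells (17.8% of all genes). Against glomerular RT1B+ cells 7 of these receptors were called higher (16% of all genes) and against RT1Blow cells 6 (13.2%), and none was lower in any of these comparisons. They included Lyve1, a hyaluronan receptor also found on lymphatic and some other endothelium, which was 58.9-fold above RT1Blow cells (level 2.45 against -3.43, adjusted p = 0.00291), and Siglec1, a sialic acid receptor of macrophages, at -2.26 against -5.65. Mertk, which takes up apoptotic cells, was 5.61-fold above RT1Blow cells, and Clec10a, a galactose-binding lectin, 4.46-fold.

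The intracellular markers were above background on every array. Cd68 lay at 4.42 and 3.38 on the macrophage-labelled arrays, 2.69 and 2.10 in glomerular RT1Blow and 0.53 and 1.04 in glomerular RT1B+ cells. In WKY blood it lay at 0.48 and 0.54 in RT1Blow, -2.47 and 0.05 in RT1B+ and -0.70 and -0.86 in pan T cells, and in LEW blood at 2.36 and 1.63 in RT1Blow and 2.07 and 0.58 in RT1B+ cells. It was called 25.6-fold above pan T (4.68 ± 0.72, adjusted p = 0.000302) and 8.67-fold above RT1B+ cells (3.12 ± 0.72, adjusted p = 0.00445), and the 1.50 ± 0.72 difference from RT1Blow cells did not pass (adjusted p = 0.102).

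Aif1 lay at 4.50 and 3.86 on the macrophage-labelled arrays, and the next array, glomerular RT1Blow replicate 1, was close at 3.65, with its partner at 1.87. Glomerular RT1B+ cells gave 0.66 and 1.56, WKY blood 0.90 and 1.66 in RT1Blow and -0.75 and 0.79 in RT1B+ cells, pan T cells -0.40 and -0.17, and LEW blood 2.31 and 1.81 in RT1Blow and 2.58 and 1.56 in RT1B+ cells. Aif1 was called 22.1-fold above pan T (4.46 ± 0.64, adjusted p = 0.000203) and 8.40-fold above RT1B+ (3.07 ± 0.64, adjusted p = 0.00271), not above RT1Blow cells (1.42 ± 0.64, adjusted p = 0.0877). Without RT1Blow replicate 1, which leaves 1 array in that group, that change was 2.31. Its second probe gave changes of 3.70, 3.29 and 1.57 in the same order, with the same calls.

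**Figure D3:**
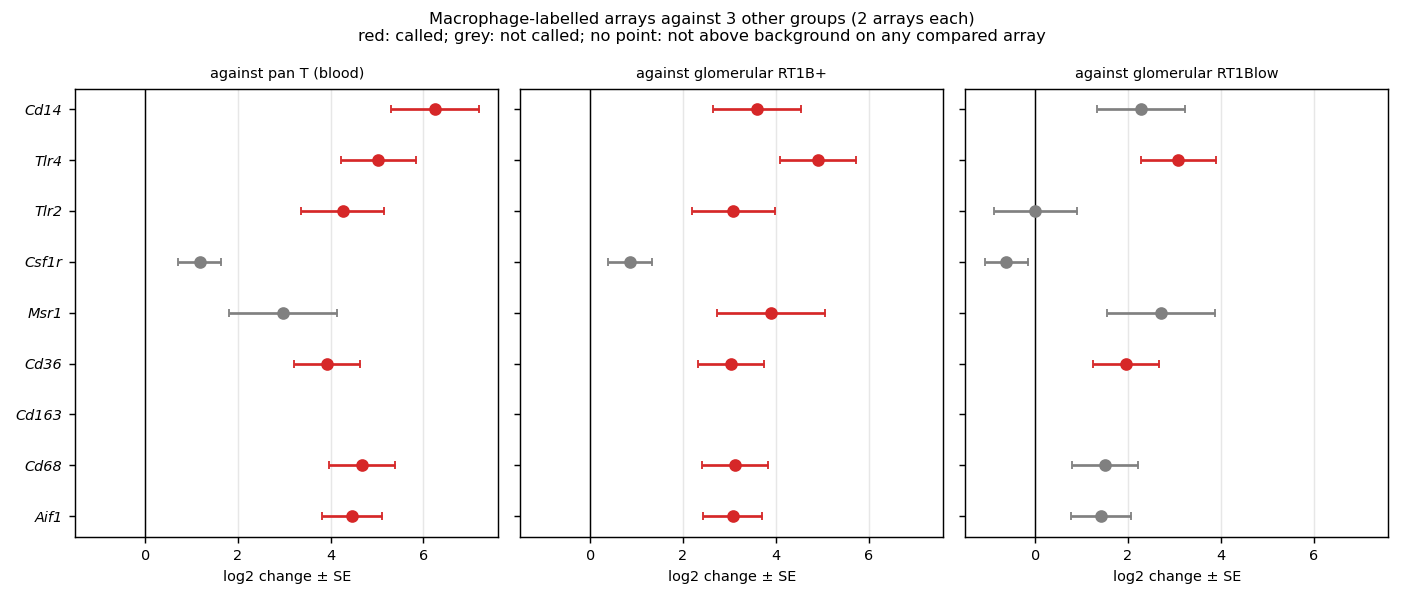
Log2 change ± SE (x axis) of the 9 tested genes (y axis) on the macrophage-labelled arrays against pan T, glomerular RT1B+ and glomerular RT1Blow cells, from limma over 16 arrays; red points were called. The points for RT1Blow cells lie nearest to 0, with Tlr4 and Cd36 called; Tlr4 against pan T is the fitted value of a gene below background there, and Cd163 is not drawn because it was below background on all compared arrays.

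The count against glomerular RT1Blow cells depended on scaling. With arrays centred on pan-leukocyte genes in place of the 75th percentile, 6 of the 9 genes were called, since this scaling raised the median change of all genes by 1.37. Under it 94.4% of all calls were in the higher direction, against 36.7% with the 75th percentile, and 39.4% of all tested genes were called higher. Quantile normalization called 5 of the 9 (12.8% of all genes higher) and normexp background correction 4 (8.11%). The direction of the changes called in the 9 genes stayed the same under all scalings tried. Against RT1Blow cells these shifted the median gene by -0.13 to 1.37, and the called changes were 1.95 for Cd36 and 3.09 for Tlr4. Their unchanged direction therefore carries little weight. Centring adds 1.41, 1.19 and 1.37 to every log2 change in the comparisons with pan T, RT1B+ and RT1Blow cells, so in other genes a lower value smaller than that turns higher under it.

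Genes of other cells moved with the macrophage-labelled arrays, beside each result above. The mean level of 16 tested glomerular genes was -0.13 and 0.35 there, against -5.00 to -3.16 on the 14 other arrays, and that of 13 kidney tubule genes was -0.90 and -1.58, against -6.20 to -4.12. Kdr, an endothelial growth factor receptor, averaged 6.26 against -5.91 in pan T cells, where it was not above background, and Podxl, of podocytes and endothelium, 5.20 against -7.01. Of the glomerular list 12 of 16 genes, and of the tubule list 10 of 13, were called higher than in pan T cells (17.8% of all genes). Against glomerular RT1B+ cells 13 and 12 were higher (16% of all genes), and against RT1Blow cells 10 and 11 (13.2%). Called lower were 1 tubule gene against pan T cells and 1 glomerular gene against each of the glomerular groups. The mean of 9 pan-leukocyte genes was lower, 3.88 and 3.09 against 4.37 to 5.44, and Ptprc, which encodes CD45, was 4.17-fold below pan T and 4.10-fold below glomerular RT1Blow cells. Neutrophil genes averaged -1.81 and -2.39 against -5.60 to -3.45, and dendritic cell genes -0.18 and -0.29 against -3.59 to -1.84. Their part in the levels of Cd14, Tlr4, Cd36 and the other genes was not tested. In sorted bulk RNA, more cells of a type and more RNA per cell cannot be told apart.

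Macrophage genes outside the 10 were also called higher than in pan T cells. Of 24 tested lineage and effector genes, 17 were higher than in pan T and 0 lower (17.8% and 19.7% of all genes), 13 higher and 2 lower than in glomerular RT1B+ (16% and 20.4% of all genes), and 5 higher and 3 lower than in RT1Blow cells, where 13.2% and 22.8% of all genes were. Against pan T the largest changes were in Trem2, a lipid receptor, at 66.9-fold, the lectin Lgals3 at 54.7-fold, Cd83 at 42.3-fold and the Fc receptor Fcgr1a at 35.5-fold. Against RT1Blow cells they were the complement genes C1qc (23.1-fold), C1qa (17.5-fold) and C1qb (15.2-fold), while the adaptor Tyrobp was 3.52-fold lower. Of 12 transcription factor genes, 10 were higher than in pan T cells, among them the lipid sensors Nr1h3 and Pparg, 77.1-fold and 27.2-fold, and Spi1, which encodes PU.1, 19.6-fold. These 3 genes were above background on 1 of 2 pan T arrays. Against glomerular RT1B+ cells 9 of the 12 transcription factor genes were higher and 1 lower (16% and 20.4% of all genes). Against RT1Blow cells 3 of them were higher and 1 lower (13.2% and 22.8% of all genes). NK cell genes went the other way against the CD8+ cells: all 10 tested were lower than in RT1Blow cells and 9 lower than in glomerular RT1B+ cells, with Gzma 18.1-fold and Klrd1 17.5-fold below RT1Blow cells. T cell genes were lower than in pan T cells for all 14 tested, but 4 were higher and 4 lower than in glomerular RT1B+ cells, and 3 higher and 4 lower than in RT1Blow cells. The lists were drawn up with earlier results of these arrays known, so their counts are no independent evidence of direction.

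**Figure D4:**
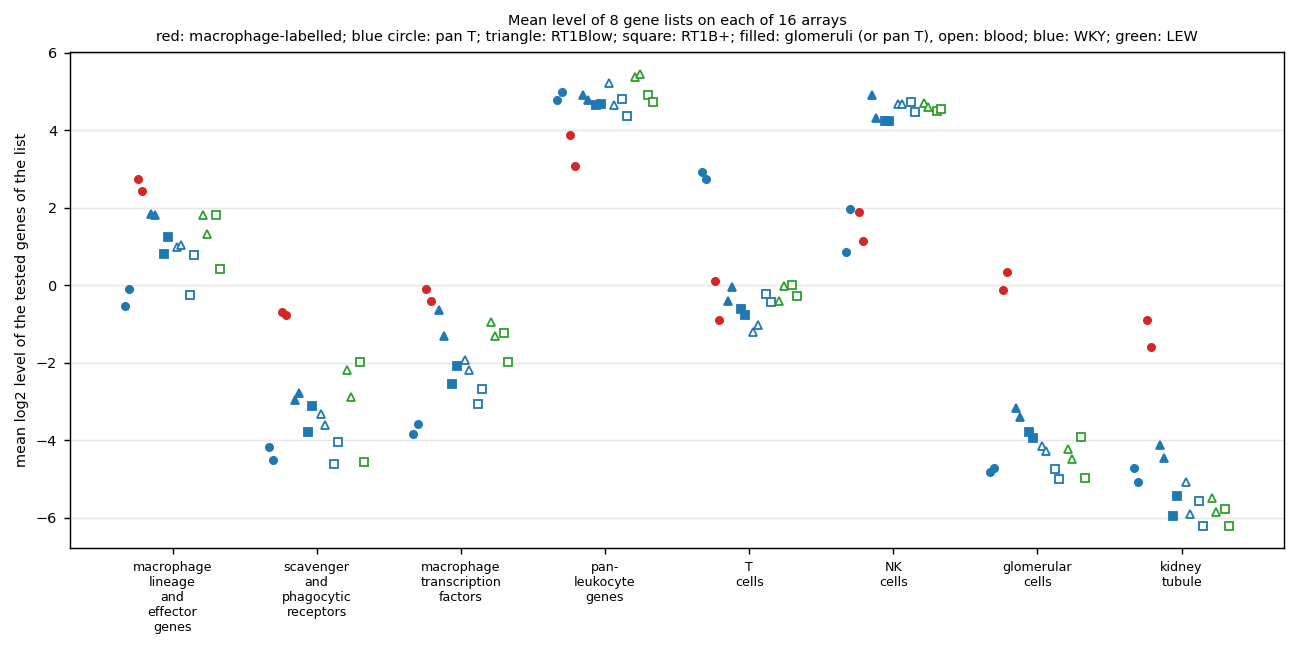
Mean log2 level (y axis) of the tested genes of 8 lists (x axis) on each of 16 arrays; red marks the macrophage-labelled arrays, blue the other WKY and green the LEW arrays. The macrophage-labelled arrays are highest for the macrophage lineage, scavenger receptor and transcription factor lists and for glomerular and tubule genes, and lowest for pan-leukocyte genes.

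The RT1B gate asks whether CD8+ cells that carry MHC class II differ from those with little of it. In glomeruli all 9 tested genes had lower estimates in RT1B+ than in RT1Blow cells, and for 8 the arrays did not overlap, where 33.2% of all genes showed such a separation in that direction. The remaining gene, Cd163, was below background on these arrays. Markers of other cells moved with the gate: 6 of 13 B cell genes and 2 of 11 erythroid and platelet genes were called lower in RT1B+ cells, and the median change was -1.51 for neutrophil and -1.60 for tubule genes. Their part in the result was not tested. No gene was called by limma (0.638% of all tested genes were), and 5 had an unadjusted p under 0.05: Tlr2, Csf1r, Aif1, Cd68 and Tlr4. The estimate was -3.08 ± 0.90 for Tlr2 (adjusted p = 0.106), -1.83 ± 0.81 for Tlr4, with 1 RT1B+ array not above background, and -1.65 ± 0.64 for Aif1. Csf1r was at -1.48 ± 0.47 (adjusted p = 0.123), and by its second probe at -2.75 ± 0.68 (adjusted p = 0.0802). The median over the 9 was -1.48, beside -0.15 for all genes, of which 60.0% had a lower estimate. Without RT1Blow replicate 2, which leaves 1 array in that group, the change of Tlr2 was -4.19.

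In WKY blood, 8 of 9 estimates were lower in RT1B+ than in RT1Blow cells, and 6 genes did not overlap, where 18.4% of all genes did so. None was called by limma (0.0703% of all genes), with 4 at an unadjusted p under 0.05: Cd36 at -2.77 ± 0.71 (adjusted p = 0.368), Cd14 at -2.67 ± 0.95, Tlr2 at -2.25 ± 0.90 and Cd68 at -1.72 ± 0.72. The values of Cd36 and Cd14 rest on WKY blood RT1B+ replicate 1, on which neither was above background, so that their size is uncertain. Both were called without RT1B+ replicate 2 (adjusted p = 0.0116 and 0.0137), where that undetected array alone stands for the group and the change has no exact size, and without RT1B+ replicate 1 no gene was called. In LEW blood 8 of 9 estimates were lower, 3 genes did not overlap (Cd14, Tlr2 and Cd36; 21.2% of all genes), none was called by limma (0.0595% of all genes) and 0 reached an unadjusted p under 0.05. Among the 8 was Cd163, which entered the test through LEW blood RT1Blow cells alone. Erythroid and platelet genes had a median change of -2.08 in LEW blood, with 2 of 11 called lower, and of -1.23 in WKY blood, with 0 called. Platelets carry CD36, and the part of these cells in the Cd36 values was not tested. Aif1 in LEW blood averaged 2.07 in RT1B+ and 2.06 in RT1Blow cells. Centring on pan-leukocyte genes, which adds 0.58 there, turns the small estimate of Tlr4. The difference between the gate effects in glomeruli and WKY blood was not called for any gene (0.103% of all genes), and 0 had an unadjusted p under 0.05. RT1B+ arrays lay in columns 3 and 4 of each slide and RT1Blow arrays in columns 1 and 2, so gate and column cannot be told apart.

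The CD8+ groups of different tissue lay on different slides, so for them tissue and slide cannot be told apart. Among RT1B+ cells, Cd14 was 20.9-fold higher in glomeruli than in WKY blood (4.38 ± 0.95, adjusted p = 0.0104) and Cd36 8.73-fold (3.13 ± 0.71, adjusted p = 0.0130). These were 2 of 9 genes called, where 13.2% of all genes were called and 8.05% higher. Neither was above background on WKY blood replicate 1, so these folds are not exact. Without that array the change was 2.46 for Cd14 (adjusted p = 0.0327) and 1.77 for Cd36 (adjusted p = 0.0600), and without glomerular RT1B+ replicate 2 the adjusted p was 0.0940 for Cd14 and 0.0818 for Cd36. Among RT1Blow cells Cd14 was higher by 3.03 ± 0.95 (adjusted p = 0.0595) and none of the 9 was called by limma (9.25% of all genes), with 3 at an unadjusted p under 0.05 (Cd14, Cd68 and Aif1). Yet 6 of the 9 did not overlap and were higher in glomeruli, where 40.1% of all genes did so. In both gates Cd163, Msr1 and Tlr4 had lower estimates in glomeruli, 3 of the 9 genes. Lower estimates were found for 44.4% of all genes in RT1B+ and 40.8% in RT1Blow cells. Cd163 was below background on all of these arrays. Cd14 came first in each of the 2 tissue comparisons. They have no array in common, but they set the same slides against each other and share a common estimate of the spread. Their results are therefore not independent.

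The strains were compared in blood, within 1 slide, but the LEW arrays lay in row 1 and the WKY arrays in row 2 of it, so strain and row cannot be told apart. All 9 tested genes had lower estimates in WKY than in LEW in both gates, where 48.7% and 50.6% of all genes did. Cd163 was above background on LEW arrays alone and entered the test through LEW RT1Blow cells. Its lower WKY estimate in RT1Blow cells, and its place in the counts there, thus followed from that filter. Centring on pan-leukocyte genes adds 0.46 to every change in RT1Blow cells, which turns the small estimates of Tlr4 and of the first Csf1r probe there. The second Csf1r probe gave -1.69 in RT1Blow and -2.48 in RT1B+ cells (adjusted p = 0.357 and 0.146). None was called by limma in either gate (0.638% and 0.914% of all genes), with 5 at an unadjusted p under 0.05 in RT1B+ and 1 in RT1Blow cells. The lowest p in both was that of Cd36, at -3.41 ± 0.71 in RT1B+ (adjusted p = 0.0597) and -2.19 ± 0.71 in RT1Blow cells (adjusted p = 0.228). In RT1Blow cells 7 genes did not overlap (29.3% of all genes), including Cd68 at -1.48 ± 0.72, Msr1 at -2.02 ± 1.16 and Cd163. The last was about 2.27-fold higher in LEW (adjusted p = 0.588), with WKY levels raised to the lowest signal above background where they lay under it. In RT1B+ cells 4 did not overlap (17.6% of all genes), including Cd68 at -2.53 ± 0.72 and Aif1 at -2.05 ± 0.64, again with the low WKY replicate 1. Without WKY RT1B+ replicate 2, only that low replicate 1 stood for the group, and the change was -3.80 for Cd68 and -4.77 for Cd36. Cd36 was not above background on the WKY array that remained and so has no exact size.

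**Figure D5:**
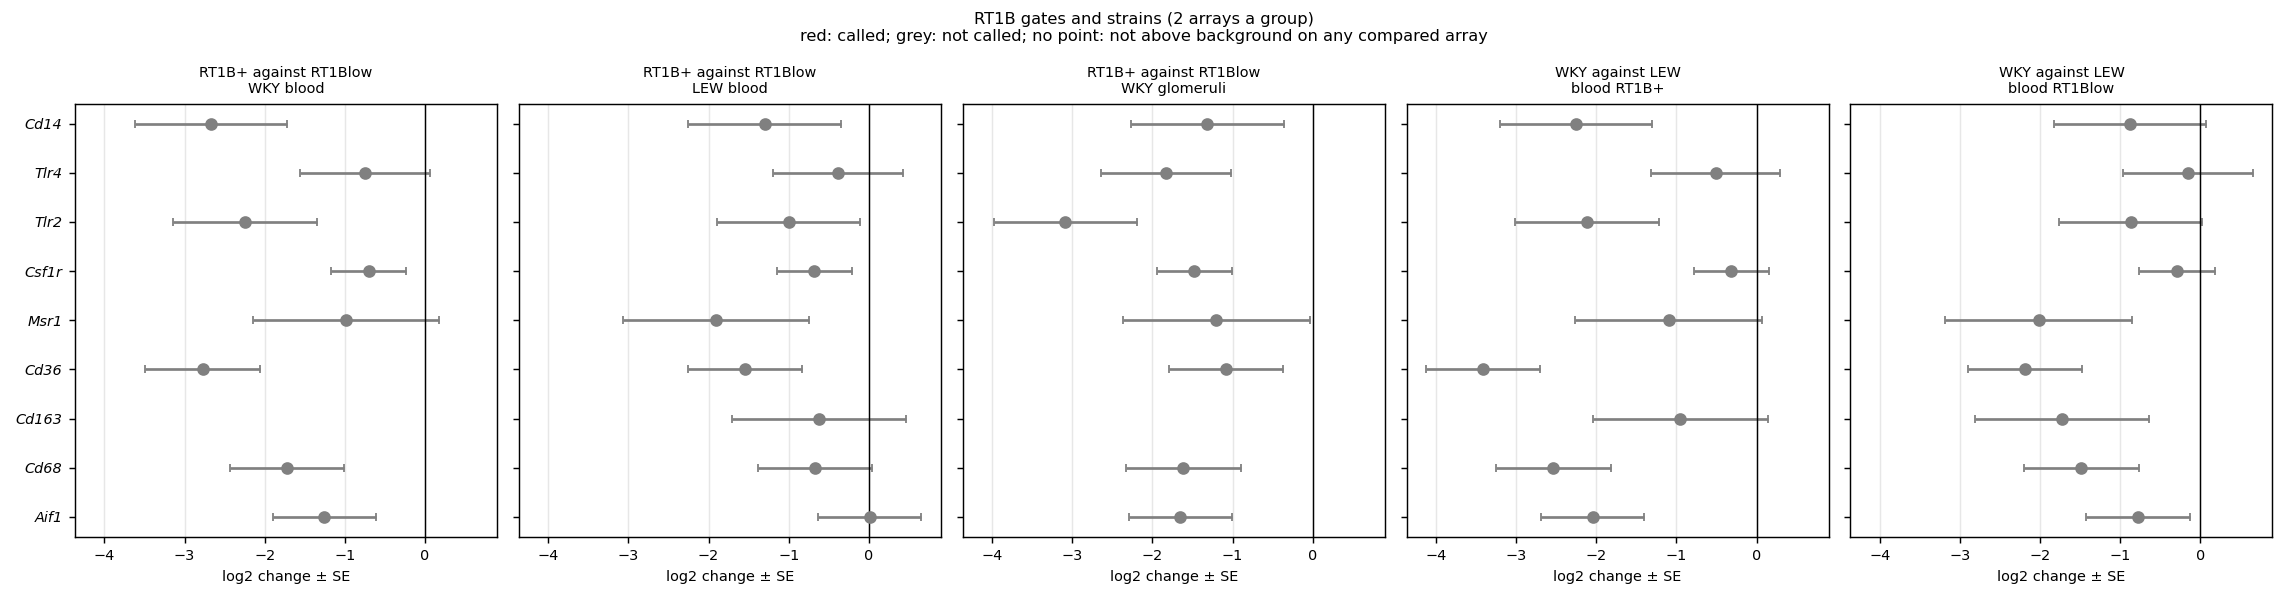
Log2 change ± SE (x axis) of the tested genes (y axis) for RT1B+ against RT1Blow cells in 3 settings and for WKY against LEW blood in both gates, 2 arrays a group, from limma over 16 arrays. No point was called; apart from Aif1 in LEW blood, at 0.01, the drawn points lie below 0.

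The pan T cells lay on the other slide. Against them, WKY blood RT1Blow cells had higher estimates for the 8 tested genes other than Cd163, which was below background on these arrays. None was called by limma (17.6% of all genes), with 3 at an unadjusted p under 0.05: Tlr2 at 2.41 ± 0.90, Aif1 at 1.57 ± 0.64 and Tlr4. Tlr4 was about 2.87-fold higher with pan T raised to the lowest signal above background, but above background on 1 of 2 RT1Blow arrays. The second Csf1r probe was called there, 4.80-fold higher (adjusted p = 0.0342). In WKY blood RT1B+ cells Cd36 was called 4.71-fold lower than in pan T cells (-2.24 ± 0.71, adjusted p = 0.0443), 1 of 9 genes, where 16.8% of all genes were called and 7.8% lower. By the second probe it was -1.61 and not called (adjusted p = 0.162). Cd36 was not above background on RT1B+ replicate 1, so the fold is not exact. The value was -0.88 (adjusted p = 0.301) without RT1B+ replicate 1 and -1.62 (adjusted p = 0.232) without pan T replicate 2.

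Across the 16 arrays the 9 tested genes followed one another to different degrees. Points share arrays, scaling and groups, so the correlations are descriptions. Cd68 and Aif1 had the highest Pearson r of any pair, 0.96, followed by Cd68 and Cd36 at 0.93 and Tlr2 and Aif1 at 0.92. Cd163 was least like the others, from -0.19 with Cd14 to 0.62 with Msr1. It was above background on 3 of the 16 arrays, all of LEW blood, so its correlations here rest largely on background signal. Among all other named tested genes, those most like Cd68 were Sulf2, Ncf4 and Fcgr1a (r = 0.98 for each of them), and those most like Tlr2 included Igsf6 (0.98) and Krt75 (0.97). For Aif1 they were Sirpa (0.98), Slc16a3 (0.97) and Cd68, and for Cd14 Akr1b8, Pla2g7 and Sulf2 (0.96 each). Cd36 was most like Cd36l1 (0.97), its neighbour in the genome, then Arhgap22 and Cd302. Csf1r had the nearest genes at lower values, with Spns3, Themis2 and Bpifa1 at 0.90. For Msr1 the nearest was Slpi (0.93), for Tlr4 Smagp (0.94) and for Cd163 PCOLCE2 (0.95).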

How the data were processed

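Per the file headers, the deposited scanner files hold Agilent Feature Extraction spot intensity values in linear units, from which the scanner software had removed background and spatial trend, without normalization between arrays; the design text names Illumina arrays, which the files contradict. The authors' deposited series matrix holds log2 values of the same arrays, used as an alternative, with its normalization not given in the sources used here. Samples were grouped by their labels. For levels, processed signals were put on the log2 scale and each array's 75th percentile was subtracted. Spots flagged as outliers were left out, replicate spots averaged, and the probe with the highest mean stood for its gene. A probe was above background where a share of at least 0.5 of its spots was well above background. RefSeq identifiers gave symbols for 18355 of 30367 gene probes; the probes were designed on another build than GRCr8, and their coordinates were not used. All 16 arrays were fitted with 1 mean per group in limma 3.58.1 (R 4.3.3) over 18481 genes, with Benjamini-Hochberg adjustment, in 13 comparisons, tested on simulated data. Calls needed an adjusted p under 0.05 and a fold of 2. Where the lower group was below background, its level was raised per array to the lowest signal above background, and the fold is given as "about". Such folds are no strict bounds, since some brighter probes were not above background. The arrays' number, 2 per group, limits precision.

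The 10 genes and the lists were chosen with earlier results of these data known. Of each list up to 4 called genes with the largest change in a comparison were eligible to be named, and for each tested gene the 3 others with the highest Pearson r. Some genes that this rule names are not reported here. Alternatives were normexp (offset 50, on median spot signals, since the files hold medians), quantile scaling, centring on pan-leukocyte genes, a 75th percentile over probes above background on all arrays, other filters, the series matrix, the mean of probes, no fold minimum, fewer groups and each array left out. The 14 lists are the colony-stimulating factor axis, Toll-like receptors, scavenger receptors, macrophage lineage genes, macrophage transcription factors, pan-leukocyte, T, NK, B and dendritic cells, neutrophils, erythroid cells and platelets, glomerular cells and kidney tubule. Of those not given in the report, B cell genes were called higher in 3 and lower in 5 of 13 against pan T cells, and erythroid and platelet genes higher in 2 and lower in 3 of 11.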

Additional observations from a re-analysis of the deposited data

How the results depend on the processing

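No paired analysis was possible because the labels give no replicate numbers that pair arrays across groups. The share of all genes called higher changed with the scaling as well. Against pan T it was 17.8% as reported, 47.9% with pan-leukocyte centring and 19.7% with the 75th percentile over probes above background on all arrays. Against glomerular RT1B+ cells it was 16% as reported and 36.1% with centring. Against RT1Blow cells it was 13.2% as reported, 39.4% with centring and 17.3% with that percentile. The number of the 9 genes called was 2 for the macrophage-labelled arrays against glomerular RT1Blow cells, and became 4 with normexp, 5 with quantile normalization, 6 with centring on pan-leukocyte genes, 4 with the 75th percentile over probes above background on all arrays, 1 without a filter on dim probes, 1 with the mean of all probes, and 5 with only the compared groups or only the arrays of the slide. For glomeruli against blood in RT1B+ cells it fell from 2 to 0 with a filter on both groups or only the compared groups; in RT1Blow cells it rose from 0 to 1 with normexp, 1 with the filter on both groups and 2 with only the compared groups. For WKY against LEW it rose from 0 to 1 in RT1B+ cells with normexp and to 3 in RT1Blow cells with only the compared groups. For WKY blood RT1B+ against pan T it fell from 1 to 0 with pan-leukocyte centring, no filter, the filter on both groups, the series matrix, the mean of probes or only the compared groups, and for RT1Blow against pan T it rose from 0 to 3 with only the compared groups. When each array was left out in turn, with the lone partner assumed to vary like the other groups, the count stayed at 6 against pan T, where it was 8 with pan-leukocyte centring, with the 75th percentile over probes above background on all arrays, and with only the compared groups or the arrays of the slide, and 7 with the mean of probes; it ranged from 4 to 6 for macrophage-labelled against glomerular RT1B+ (7 as reported, 5 with the filter on both groups, 8 with pan-leukocyte centring or the mean of probes) and from 0 to 2 against RT1Blow, from 0 to 2 for the gate in WKY blood, 0 to 1 in glomeruli and 0 to 0 in LEW blood, from 0 to 3 for tissue in RT1B+ and 0 to 1 in RT1Blow cells, from 0 to 3 for strain in RT1B+ and 0 to 1 in RT1Blow cells, and from 0 to 2 and 0 to 1 for RT1B+ and RT1Blow against pan T.

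Against pan T, Csf1r was called under 7 of 16 alternatives and Msr1 under 4 of 14. Among the macrophage comparisons, single changes that turned sign were those against glomerular RT1Blow cells of Tlr2 (-0.15 with normexp, -0.23 without macrophage-labelled replicate 1, -1.10 without RT1Blow replicate 2, with 1.11 without RT1Blow replicate 1) and of Csf1r (0.75 with pan-leukocyte centring); none of these had been called. The small gate and strain estimates that pan-leukocyte centring turns are named in the results. The cause was not tested in these cases, beyond the fewer arrays or genes that a setting leaves. Calls over all genes ranged from 0 to 222 for the gate in WKY blood (13 as reported), 0 to 57 in LEW blood (11) and 2 to 808 in glomeruli (118), from 20 to 425 for strain in RT1B+ (118) and 12 to 815 in RT1Blow cells (169), and from 1043 to 3102 for tissue in RT1B+ (2439) and 569 to 2357 in RT1Blow cells (1709). Pan-leukocyte centring raised the share of calls in the higher direction from 47.5% to 94.9% against pan T and from 43.9% to 93.7% against glomerular RT1B+ cells, with shifts of the median gene of 1.41 and 1.19. For the macrophage-labelled arrays, calls over all genes ranged from 4683 to 9336 against pan T (6917 as reported). They ranged from 5137 to 8962 against glomerular RT1B+ (6735) and from 4936 to 8779 against RT1Blow cells (6667). For WKY blood against pan T they ranged from 2236 to 3868 in RT1B+ (3104) and 2325 to 4125 in RT1Blow cells (3248).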
